A study of Rattus norvegicus with 10 samples.

Results

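The adrenergic receptors are cell surface receptors for noradrenaline and adrenaline. The genes described here are Adra1a, Adra1b, Adra1d, Adra2a, Adra2b, Adra2c and Adrb1, chosen by name, 7 of the 32402 genes in the count table. Polyadenylated RNA was sequenced from the rat supraoptic nucleus (SON; strain Wistar Han), in 5 dehydrated libraries from rats kept 72 h without drinking water and 5 euhydrated libraries from rats with free access to water. Both SONs were punched from frozen slices with a 1 mm corer, so each library also holds glia, vessels and neighbouring tissue, and fewer cells of a type cannot be told apart from less RNA per cell. All rats were of 1 outbred strain with no transgene named, and the labels used here give neither age nor sex.

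The SON holds magnocellular neurones that make vasopressin and oxytocin and release them from the posterior pituitary. Noradrenergic neurones of the brainstem send axons to the nucleus, and noradrenaline is known in the rat to excite magnocellular neurones through alpha1 receptors. Alpha1 receptors act through the G protein Gq on phospholipase C and calcium, alpha2 receptors through Gi and Go on adenylyl cyclase and potassium channels, and beta receptors through Gs on adenylyl cyclase and cyclic AMP. Alpha2 receptors also sit on noradrenergic axon ends, where they limit release. The cell bodies of those axons lie in the brainstem, which was not sampled here.

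Each library held 24268398 to 28491926 counts assigned to genes, of which 792 to 993 in dehydrated and 972 to 1063 in euhydrated libraries fell on the 7 receptor genes. Avp and Oxt, the vasopressin and oxytocin genes, summed to 10162 to 13810 CPM (counts scaled to library size with TMM factors) in dehydrated and 7286 to 10526 CPM in euhydrated libraries. Libraries are named by the number in their column. The labels do not tie each library to its own animal, so the spread behind every p-value is that between these libraries and may be partly technical.

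The comparison of dehydrated with euhydrated libraries asked whether receptor transcripts change after 72 h without water. All 7 genes had enough counts to be tested, and 0 of 7 passed the threshold of an edgeR adjusted p of 0.05, against 12.7% of all 15311 genes tested. At an unadjusted p under 0.05 there were also 0 of 7, against 26.4% of all genes, and limma-voom and DESeq2, which gave no adjusted p for Adra2b, called 0 as well. The libraries of the 2 groups overlapped for all 7 genes, where 10.9% of all genes had groups that did not overlap. The fitted change was above 0 for 3 genes and below 0 for 4, with a median log2 fold change (dehydrated over euhydrated) of -0.07, against -0.0058 for all genes. The edgeR adjusted p ran from 0.269 for Adra1d to 0.852 for Adrb1. Counts grow with transcript length, which was not used here, so levels are compared between groups and not between genes.

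**Figure D1:**
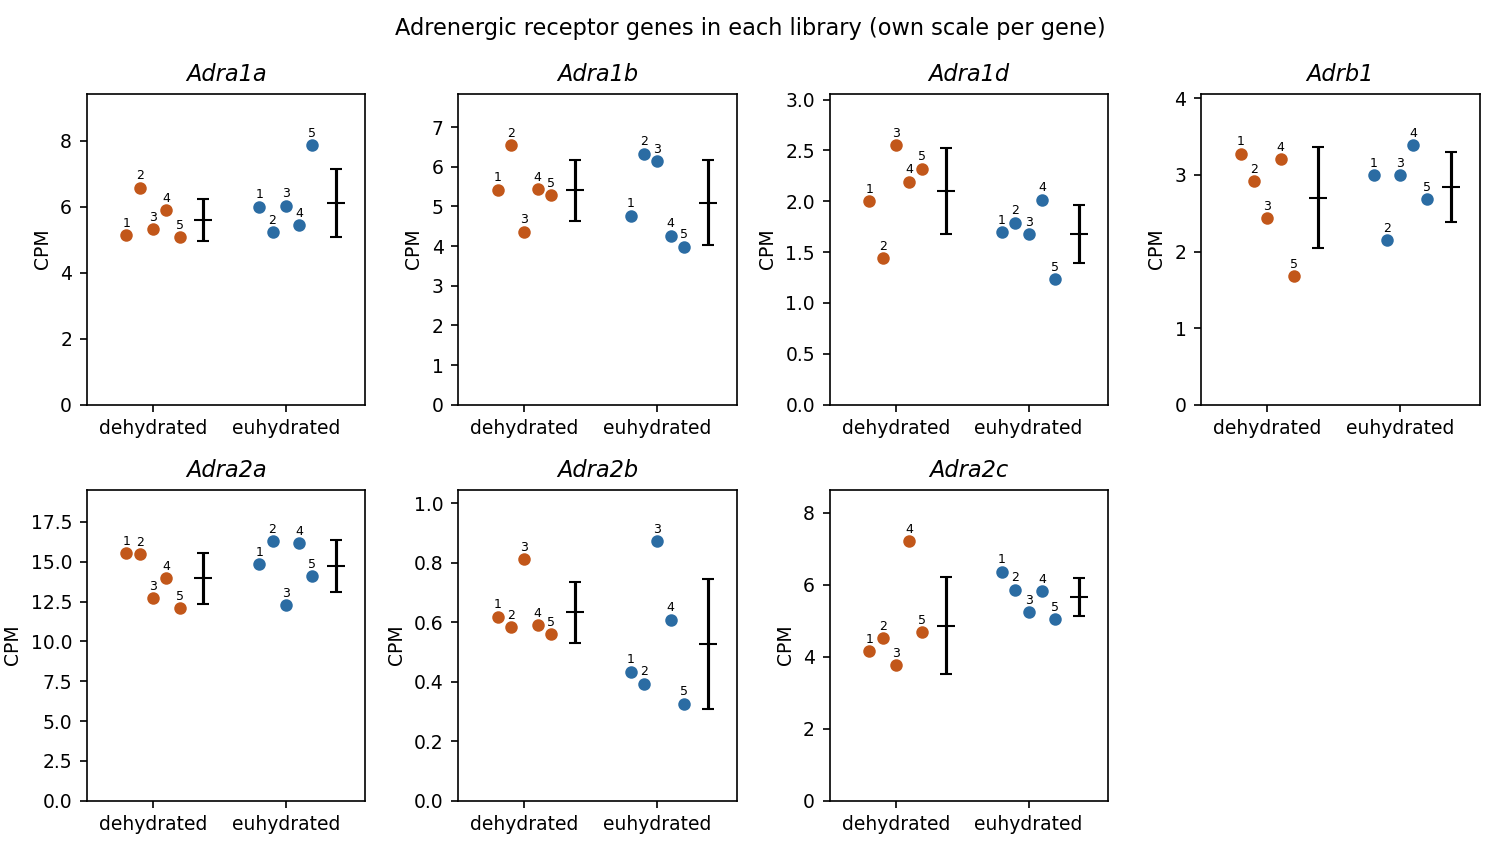
CPM of each adrenergic receptor gene (vertical axis, from 0, own scale per gene) in the 5 dehydrated and 5 euhydrated libraries, numbered as in the count table, with the mean and SD in black. The groups overlap in every panel, and dehydrated 4 stands above the other dehydrated libraries for Adra2c.

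Among the alpha1 receptors, Adra1a (ENSRNOG00000009522), a receptor also known for contracting smooth muscle, had 5.13, 6.58, 5.32, 5.90 and 5.08 CPM in dehydrated 1 to 5, against 6.0, 5.22, 6.03, 5.44 and 7.86 CPM in euhydrated 1 to 5. The top of the range was 1 euhydrated library, number 5, and the other 9 lay between 5.08 and 6.58 CPM. Means were 5.60 ± 0.636 CPM in dehydrated and 6.11 ± 1.04 CPM in euhydrated libraries (SD, n = 5 each), which is -0.13 ± 0.12 on the log2 scale (SE; edgeR adjusted p = 0.547). The 95% interval allowed a level between 0.769 and 1.09 times that of euhydrated libraries. Without euhydrated 5 the log2 fold change was -0.018, and without dehydrated 2 it was -0.19.

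Adra1b (ENSRNOG00000060087), which like Adra1a couples to Gq, had 5.42, 6.54, 4.36, 5.44 and 5.28 CPM in dehydrated 1 to 5, against 4.77, 6.33, 6.14, 4.26 and 3.99 CPM in euhydrated 1 to 5. Euhydrated libraries covered nearly the same range as dehydrated ones, with numbers 2 and 3 high and 4 and 5 low. The log2 fold change was 0.08 ± 0.14 (SE; edgeR adjusted p = 0.767), with an interval of 0.859- to 1.31-fold. It ran from 0.0051 without dehydrated 2 to 0.17 without euhydrated 2.

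Adra1d (ENSRNOG00000021256), the third alpha1 receptor and one known from arteries, had the smallest p of the family. It had 2.0, 1.44, 2.55, 2.19 and 2.32 CPM in dehydrated 1 to 5, against 1.70, 1.79, 1.67, 2.02 and 1.23 CPM in euhydrated 1 to 5. Of the dehydrated libraries 4 lay above the euhydrated median and 1, number 2, lay below it and near the lowest euhydrated value. Means were 2.10 ± 0.419 CPM in dehydrated and 1.68 ± 0.286 CPM in euhydrated libraries (SD, n = 5 each), which is 0.32 ± 0.18 on the log2 scale (SE; edgeR adjusted p = 0.269). The interval ran from 0.961- to 1.63-fold, which holds both no change and a rise by 1.6-fold. Without dehydrated 2 the log2 fold change was 0.43 and the edgeR adjusted p 0.119.

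**Figure D2:**
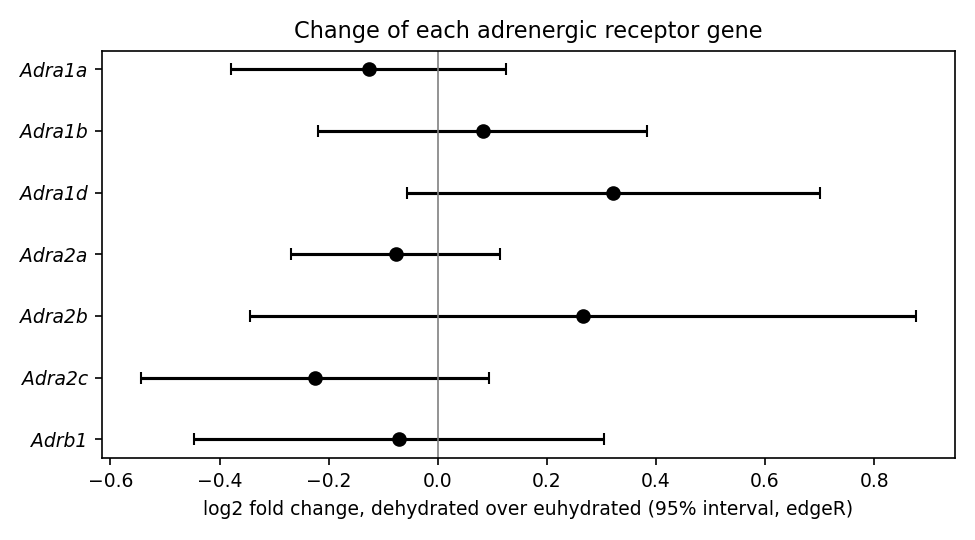
Log2 fold change of each receptor gene, dehydrated over euhydrated (horizontal axis; points are edgeR estimates over 5 and 5 libraries, bars are 95% intervals, and the grey line marks no change). Every interval spans 0, from the narrowest for Adra2a (-0.27 to 0.11) to the widest for Adra2b (-0.34 to 0.88).

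Among the alpha2 receptors, Adra2a (ENSRNOG00000047545), known in the mouse as the main receptor by which noradrenergic neurones limit their own release, was measured most precisely, with 302 to 455 counts per library. It had 15.5, 15.5, 12.7, 14.0 and 12.1 CPM in dehydrated 1 to 5, against 14.9, 16.3, 12.3, 16.2 and 14.1 CPM in euhydrated 1 to 5. Both groups spread over about the same range. Means were 14.0 ± 1.58 CPM in dehydrated and 14.7 ± 1.65 CPM in euhydrated libraries (SD, n = 5 each), which is -0.08 ± 0.09 on the log2 scale (SE; edgeR adjusted p = 0.647). The 95% interval, 0.830- to 1.08-fold, was the narrowest of the 7 genes. The log2 fold change ran from -0.13 without euhydrated 3 to -0.030 without dehydrated 5.

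Adra2b (ENSRNOG00000013887), an alpha2 receptor known for raising vascular tone, rested on 9 to 25 counts per library. It had 0.619, 0.584, 0.813, 0.590 and 0.560 CPM in dehydrated 1 to 5, against 0.434, 0.394, 0.872, 0.609 and 0.326 CPM in euhydrated 1 to 5. All 5 dehydrated libraries lay above the euhydrated median, yet within the euhydrated range, whose top was number 3. The log2 fold change was 0.27 ± 0.29 (SE; edgeR adjusted p = 0.612), with an interval of 0.788- to 1.84-fold. Without euhydrated 3 it was 0.53 (edgeR adjusted p = 0.257), and without euhydrated 5 it was 0.14 (edgeR adjusted p = 0.824).

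Adra2c (ENSRNOG00000009299), an alpha2 receptor known from the striatum of rodents, had 4.15, 4.52, 3.77, 7.21 and 4.68 CPM in dehydrated 1 to 5, against 6.36, 5.87, 5.23, 5.82 and 5.04 CPM in euhydrated 1 to 5. Of the dehydrated libraries 4 lay below every euhydrated library, and dehydrated 4 lay above all of them. Means were 4.86 ± 1.36 CPM in dehydrated and 5.66 ± 0.532 CPM in euhydrated libraries (SD, n = 5 each), which is -0.22 ± 0.15 on the log2 scale (SE; edgeR adjusted p = 0.371). Without dehydrated 4, one of the 10 fits that each leave out a library, the mean of dehydrated libraries was 4.28 ± 0.405 CPM (n = 4), the log2 fold change -0.41 ± 0.11 and the edgeR adjusted p 0.0270. In that fit 11.4% of all genes passed, and 13.4% had groups that did not overlap. With any other library left out the edgeR adjusted p was 0.339 to 0.616.

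Values of 3 other genes, and the change of Drd2, are given beside Adra2c. Lamp5 was picked for its likeness to Adra2c over these same libraries, so its high value in dehydrated 4 follows from that choice. Lamp5, for a membrane protein of some forebrain neurones and the gene whose values were most like those of Adra2c, had 15.5 CPM in dehydrated 4 and 7.61 to 9.58 CPM in the other dehydrated libraries, against 10.0 to 12.4 CPM in euhydrated libraries. Drd1, for the D1 dopamine receptor, had 12.2 CPM in dehydrated 4 and 5.53 to 6.59 CPM in the other dehydrated libraries, against 7.88 to 13.6 CPM in euhydrated libraries. The log2 fold change of Drd1 was -0.68 ± 0.24 (SE, edgeR adjusted p = 0.107). Drd2, for the D2 dopamine receptor, went the other way, with 0.41 ± 0.16 (SE, edgeR adjusted p = 0.138). Slc17a7, for a vesicular glutamate transporter abundant in cortex, varied from 16.2 to 63.7 CPM in dehydrated and from 11.4 to 89.8 CPM in euhydrated libraries, with 52.0 CPM in dehydrated 4. Drd1, Drd2 and Slc17a7 were chosen after their values were seen, and the part that tissue around the SON had in the Adra2c values was not tested. Dehydrated 4 stood apart from the rest of its group in 1.44% of all genes tested, and the other 9 libraries in 0.660% to 1.28%.

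**Figure D3:**
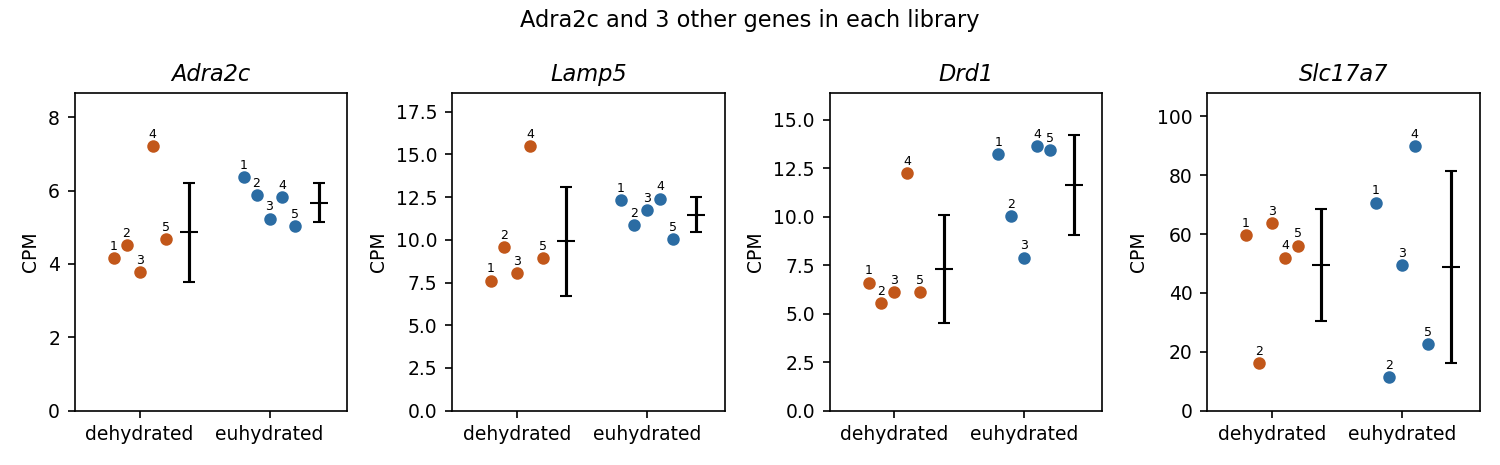
CPM of Adra2c, Lamp5, Drd1 and Slc17a7 (vertical axes, from 0, own scale per gene) in the 5 dehydrated and 5 euhydrated libraries, numbered as in the count table, with the mean and SD in black. Dehydrated 4 is the highest dehydrated library for Adra2c, Lamp5 and Drd1, and lies within the range of its group for Slc17a7.

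The beta receptor gene Adrb1 (ENSRNOG00000017002), whose product couples to Gs and is known for raising heart rate, had 3.28, 2.92, 2.44, 3.20 and 1.68 CPM in dehydrated 1 to 5, against 3.00, 2.15, 3.00, 3.39 and 2.68 CPM in euhydrated 1 to 5. Dehydrated 5 was the lowest and euhydrated 4 the highest, and the rest were mixed. The log2 fold change was -0.07 ± 0.18 (SE; edgeR adjusted p = 0.852), with an interval of 0.734- to 1.24-fold.

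Spread among libraries was set against the error of counting alone. For Adra2a the coefficient of variation was 11.3% in dehydrated and 11.2% in euhydrated libraries, about double the 5.27% and 4.96% that its mean counts give by counting. For Adra2c it was 27.9% in dehydrated libraries, where counting gives 8.98%, and 9.40% in euhydrated libraries, where counting gives 8.0%. For Adra2b it was 16.2% in dehydrated and 41.6% in euhydrated libraries, on either side of the 24.7% and 26.2% from counting. The remaining 4 genes varied by 11.3% to 24.4% in dehydrated and 16.3% to 21.2% in euhydrated libraries, above the 7.69% to 14.7% from counting.

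In the authors' deposited table, made with DESeq2, log2 fold changes were -0.13 for Adra1a, 0.08 for Adra1b, 0.32 for Adra1d, -0.08 for Adra2a, 0.27 for Adra2b, -0.22 for Adra2c and -0.07 for Adrb1. In the authors' deposited table adjusted p ran from 0.318 for Adra1d to 0.870 for Adrb1, and Adra2b had none.

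Other genes of adrenergic signalling, and dopamine, serotonin, histamine, muscarinic and trace amine receptors, were followed in 7 lists of 87 genes. Of these 80 were tested: 7 rose, 6 fell and 67 did not pass. Of all genes tested 7.79% rose and 4.9% fell, and the counts of each list below are to be set beside these shares. When the erythrocyte marker level was added as a covariate, 4 of the 13 calls held, those of Th, Slc18a2, Prkar1a and Rgs4. Calls over all genes fell to a similar share with that covariate, so the loss was not particular to these lists. Both counts over all genes are given in the section on how the results depend on the processing. The other 9 of the 13 had edgeR adjusted p of 0.0591 to 0.299. Those 9 kept their direction, each with a larger SE. Their log2 fold changes were farther from 0 with the covariate for Gch1 (0.81), Prkce (-0.24), Kcnj9 (-0.25) and Adcy8 (0.19), and nearer to 0 for Prkca (0.19), Gnas (0.12), Rgs2 (-0.16), Hrh3 (-0.21) and, by less than 0.01, Chrm3 (-0.32). That marker level was itself 0.81 lower (log2 CPM) in dehydrated libraries, so the covariate carries part of the group difference.

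Of the genes that make, store, take up and break down noradrenaline, 3 of 7 tested rose and 0 fell. Th, for tyrosine hydroxylase, the rate-limiting enzyme of catecholamine synthesis, had 78.1 to 165 CPM in dehydrated and 22.1 to 44.8 CPM in euhydrated libraries. The rise was 3.13-fold (log2 fold change 1.65 ± 0.27, edgeR adjusted p = 0.00612). The highest value was that of dehydrated 2, and the other dehydrated libraries had 78.1 to 101 CPM. Without dehydrated 2 the log2 fold change of Th was 1.40 ± 0.19 (SE; edgeR adjusted p = 0.00324). Gch1, which makes the cofactor that Th needs, had 1.96 ± 0.319 CPM in dehydrated and 1.16 ± 0.349 CPM in euhydrated libraries (SD, n = 5 each; log2 fold change 0.76 ± 0.20, edgeR adjusted p = 0.0224). Its call was lost without dehydrated 5 or euhydrated 1, 2 or 4 (edgeR adjusted p = 0.0527 to 0.0564). Slc18a2, the transporter that fills vesicles with monoamines, rose 1.44-fold (log2 fold change 0.52 ± 0.13, edgeR adjusted p = 0.0119). With pericyte and smooth muscle markers as a covariate its log2 fold change was 0.50 ± 0.16 and the edgeR adjusted p 0.0630. Ddc, the next enzyme after Th, had 22.0 ± 5.50 CPM in dehydrated and 22.3 ± 4.38 CPM in euhydrated libraries (edgeR adjusted p = 0.966). Of the 4 markers of a noradrenergic cell body, Slc18a2, which other monoamine neurones also use, had 126 to 223 counts per library. The other 3 had 0 to 8, among them Dbh, which turns dopamine into noradrenaline, with 0 to 6 and the noradrenaline transporter gene Slc6a2 with 1 to 8. The median log2 fold change of this list was 0.04, against -0.0058 for all genes.

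**Figure D4:**
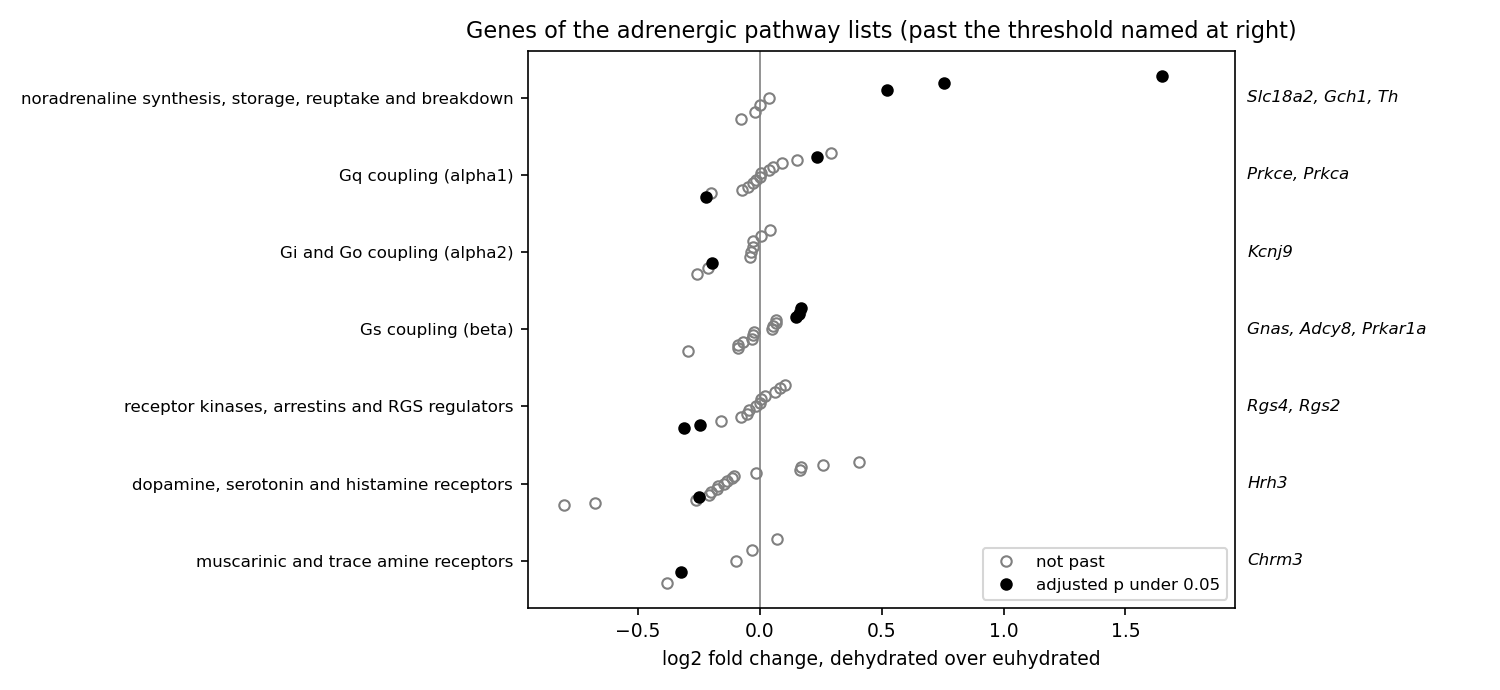
Log2 fold change, dehydrated over euhydrated (horizontal axis), of each tested gene of 7 lists (rows). The lists hold genes of adrenergic signalling and dopamine, serotonin, histamine, muscarinic and trace amine receptors. Filled points passed an edgeR adjusted p of 0.05 and are named at the right from lowest to highest; 7 rose and 6 fell, and Th lies farthest from 0 at 1.65.

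Downstream of alpha1 receptors, 1 of 14 genes rose and 1 fell, both protein kinase C genes. Prkca had 66.6 ± 1.68 CPM in dehydrated and 56.6 ± 5.27 CPM in euhydrated libraries (SD, n = 5 each; 1.18-fold, edgeR adjusted p = 0.00888). Prkce was 1.16-fold lower in dehydrated libraries, at 63.6 ± 2.19 against 74.0 ± 5.69 CPM in euhydrated libraries (edgeR adjusted p = 0.00839). For the genes of Gq itself the log2 difference was 0.05 for Gnaq (edgeR adjusted p = 0.475) and -0.01 for Gna11 (0.881).

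Downstream of alpha2 receptors, 1 of 9 genes fell and 0 rose. Kcnj9, a subunit of the potassium channels that Gi and Go open, had 30.5 ± 2.21 CPM in dehydrated and 35.0 ± 0.822 CPM in euhydrated libraries (SD, n = 5 each; log2 fold change -0.20 ± 0.05, edgeR adjusted p = 0.0168). The call did not hold with oligodendrocyte markers (log2 fold change -0.17, edgeR adjusted p = 0.0549) or pericyte and smooth muscle markers (-0.14, edgeR adjusted p = 0.128) as a covariate.

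Downstream of beta receptors, 3 of 15 genes rose and 0 fell. Prkar1a, a regulatory subunit of protein kinase A, had 435 to 461 CPM in dehydrated and 389 to 411 CPM in euhydrated libraries (1.12-fold, edgeR adjusted p = 0.000636). Gnas, for the alpha subunit of Gs, had 1415 to 1552 CPM in dehydrated and 1317 to 1388 CPM in euhydrated libraries (1.11-fold, edgeR adjusted p = 0.00471). Neither gene's groups overlapped, and 10.9% of all genes tested had groups that did not overlap. Adcy8, a calcium-stimulated adenylyl cyclase, rose 1.12-fold (log2 fold change 0.16 ± 0.05, edgeR adjusted p = 0.0336). It missed the threshold without dehydrated 1, 2, 3 or 5 or euhydrated 1, 2 or 4 (0.0527 to 0.0806), with library totals in place of TMM factors (0.0814) and with oligodendrocyte (0.0927) or pericyte and smooth muscle markers (0.121) as a covariate. Its log2 fold change was 0.14 with library totals, 0.14 with oligodendrocyte markers and 0.15 with pericyte and smooth muscle markers. Groups also did not overlap for Adcy8, nor for Adcy1, which was lower in dehydrated libraries and did not pass (edgeR adjusted p = 0.0729).

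Of 13 receptor kinase, arrestin and RGS genes 2 fell and 0 rose. RGS proteins speed the switching off of G proteins. Rgs4 had 131 to 145 CPM in dehydrated and 158 to 191 CPM in euhydrated libraries (1.24-fold lower, log2 fold change -0.31 ± 0.04, edgeR adjusted p = 0.000277). Rgs2 had 20.4 to 24.0 CPM in dehydrated and 24.8 to 29.5 CPM in euhydrated libraries (log2 fold change -0.24 ± 0.06, edgeR adjusted p = 0.0118). Neither gene's groups overlapped, as was so for 10.9% of all genes tested. Grk2, the best known kinase of adrenergic receptors, had a log2 difference of -0.02 (edgeR adjusted p = 0.785), and the arrestin genes Arrb1 and Arrb2 by 0.02 and -0.05 (0.837 and 0.439).

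Receptors for other amines were set beside the adrenergic ones. Of 17 dopamine, serotonin and histamine receptor genes 1 fell and 0 rose, with a median log2 fold change of -0.14. Of 5 muscarinic receptor genes 1 fell and 0 rose, with a median of -0.10. Over all genes tested 4.9% fell and 7.79% rose, with a median of -0.0058. The members that fell were Hrh3, a histamine receptor that limits transmitter release (21.9 ± 2.39 CPM in dehydrated and 26.0 ± 0.568 CPM in euhydrated libraries; edgeR adjusted p = 0.0184), and Chrm3, a muscarinic receptor that couples to Gq (16.5 ± 2.14 CPM in dehydrated and 20.6 ± 1.16 CPM in euhydrated libraries; SD, n = 5 each; edgeR adjusted p = 0.0132). With pericyte and smooth muscle markers as a covariate the edgeR adjusted p of Chrm3 was 0.0562, and its log2 fold change was -0.32 with and without that covariate, with an SE of 0.10 with it and 0.08 without it.

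By the mean absolute difference in log2 CPM over the 10 libraries, each gene centred on its own mean, the genes nearest to each receptor were Zfp113 for Adra1a (0.0586), Fgf1 for Adra1b (0.0867), Slc16a4 for Adra1d (0.110), Cbfa2t3 for Adra2a (0.0570), Parp16 for Adra2b (0.133), Lamp5 for Adra2c (0.0890) and Vegfc for Adrb1 (0.0976). The second nearest were Siae (0.0795), Shq1 (0.0930), Adcyap1 (0.115), Tstd3 (0.0596), Clec7a (0.154), Sp7 (0.0903) and Alx1 (0.110), in the same order of receptors. The median over all candidates was 0.158 for Adra2a to 0.304 for Adra2b. The nearest of 12958 or 12959 candidates over 10 libraries is a description of these libraries only.

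Marker levels of 13 cell types gave 0 lists with an adjusted exact permutation p under 0.05 (lowest 0.103, two-sided). The smallest p possible with 5 libraries against 5 is 0.00794, so a single list could not pass after adjustment. Erythrocyte markers summed to 591 to 1429 CPM in dehydrated and 1029 to 2059 CPM in euhydrated libraries (difference in mean log2 CPM -0.81, exact permutation p = 0.0317, 8 of 14 markers tested, Hbe1 at 0), and pericyte and smooth muscle markers to 834 to 1180 CPM in dehydrated and 820 to 1084 CPM in euhydrated libraries (difference 0.17, exact permutation p = 0.111). Magnocellular (0.33, resting on Avp and Oxt alone) and noradrenergic (0.52, resting on Slc18a2 alone) markers had an exact permutation p of 0.0159 each. For lists this short, a change in expression cannot be told apart from a change in cell number. The other 9 lists (neurones, astrocytes, oligodendrocytes and their precursors, microglia, endothelium, meningeal fibroblasts, neighbouring hypothalamic neurones, and ependyma with choroid plexus) had exact permutation p of 0.119 to 0.794. Single markers that passed in the fit over all genes, other than Slc18a2, were Opalin (log2 fold change -0.25, edgeR adjusted p = 0.00105) and Cnp (-0.27, edgeR adjusted p = 0.0327) of 10 oligodendrocyte markers, Slc4a1 (-1.53, edgeR adjusted p = 0.0291) of the erythrocyte markers, Tubb3 (0.18, edgeR adjusted p = 0.00255) of 5 neurone markers tested and Cspg4 (0.23, edgeR adjusted p = 0.0198) of 5 oligodendrocyte precursor markers. Receptor genes that are also used by vessels or glia are not separated from those of neurones in these libraries, and the part of cell mix in their values was not tested beyond the marker covariates.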

How the data were processed

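For 10 libraries the authors deposited unnormalised whole-number counts by Ensembl gene. The submitters' processing notes name STAR and featureCounts (beside CASAVA and FastQC) and, for testing, DESeq2 1.28.1. Build, annotation release and strand setting are not given in these sources; coordinates are therefore left out, and genes that overlap others are uncertain. The authors also deposited log2 fold changes with their standard errors (unit score) and p-values from DESeq2, per the file headers. Euhydrated columns 3 to 5 could be tied to their group only. No pair of libraries within a group agreed within sampling noise (chi-square over its degrees of freedom, 4.86 to 12.1).

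From the counts, genes were filtered with filterByExpr (15311 kept), scaled by TMM and tested with edgeR 4.0.16 (glmQLFit and glmQLFTest, robust, R 4.3.3, no covariate), with Benjamini-Hochberg adjustment over all genes and a threshold of 0.05. Intervals are at 95%. Symbols came from the authors' deposited table. Log2 CPM used a prior count of 2. For marker levels, exact permutation tests (two-sided) were used. The edgeR script was tested on simulated counts, and the permutation script on a fixed set of values with a known p. The members and lists were chosen with earlier results of these data known. Named genes were the 7 members, up to 3 genes past the threshold per pathway list (with none, the most abundant) and the 2 genes nearest to each member over the 10 libraries with at least 1 CPM; other pathway genes were named after their values were seen, and 1 list and 1 marker are not reported here. The alternatives were DESeq2 1.42.0, limma-voom (limma 3.58.1), other scalings and filters, a block by column number, 4 marker covariates and each library left out. At this depth (24268398 to 28491926 counts per library) the counting error was largest for Adra2b. Counting errors assume that reads are independent molecules.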

Additional observations from a re-analysis of the deposited data

Results flagged for a closer look

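Within a group of 5, a library was marked when its gap to the nearest other library exceeded 0.71 of the group's range (Dixon's 95% value), which chance does in about 1 of 20 groups; 2 of the 14 groups of receptor values were marked. Adra2c had 7.21 CPM in dehydrated 4, where the other dehydrated libraries had 3.77 to 4.68 CPM. Adra2b had 0.813 CPM in dehydrated 3, where the other dehydrated libraries had 0.560 to 0.619 CPM.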

How the results depend on the processing

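The count of receptor genes past the threshold was 0 in all alternatives except without dehydrated 4, where Adra2c passed (0 to 1 with 1 library left out). Over these fits the log2 fold change of Adra2c ran from -0.41 to -0.15 and that of Adrb1 from -0.16 to 0.058; Adra1a (-0.19 to -0.018), Adra1b (0.0051 to 0.17), Adra1d (0.23 to 0.43), Adra2a (-0.13 to -0.030) and Adra2b (0.14 to 0.53) kept their sign. Signs turned, with no call, for Adra2a (0.10) and Adrb1 (0.17) with the erythrocyte covariate and for Adra1b (-0.019) and Adra2b (-0.023) with the pericyte and smooth muscle covariate; the cause was not tested. Adra2b had no value under a filter of CPM above 1 in at least 5 libraries, and no adjusted p in DESeq2. Over all genes, 1942 passed, 1192 higher and 750 lower. With the erythrocyte covariate 647 passed, 492 higher and 155 lower, and 4 pathway genes in place of 13; with the pericyte and smooth muscle covariate 1253 passed, 404 of them lower. Library totals without TMM factors, which moved the median change over all genes to -0.033 (log2), gave 904 higher and 1173 lower. With each library left out, 1494 to 1756 genes passed. The mean level of neurone markers turned to -0.019 with library totals and ran from -0.011 to 0.022 with 1 library left out, and that of ependyma and choroid plexus markers from -0.23 to 0.014.

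With column number as a replicate block 1956 genes passed, 0 of the 7 receptors among them, and Adra2c had a log2 fold change of -0.25. Deviations of same-numbered libraries correlated by -0.068 to 0.141, and 1 of 5 dehydrated libraries correlated best with its own number. The labels name no batch, and so few libraries cannot show whether those of the same number were handled together.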
